A study of Caenorhabditis elegans with 4 samples.

Results

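CFP-1 regions on the X chromosome that carried no H3K4me3 peak are described here, from ChIP-seq peak lists of Caenorhabditis elegans late embryos. A CFP-1 region was a merged interval holding a CFP-1::GFP peak of both samples, RC03 and RC04, and it counted as unmarked when no H3K4me3 peak of either sample shared a base pair with it, and as marked when one did. Of 7577 CFP-1 regions in all, 1217 lay on X, and 333 of these were unmarked. The 333 regions were thus chosen by the CFP-1 calls and by the missing H3K4me3 calls, so their number and their lack of the mark are a description and not a finding.

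All 4 lists came from whole embryos of strain JA1597, aged for 3.5 hours after bleaching of the adults. The strain carries a transgene inserted at a targeted site on chromosome IV, in which the dpy-30 promoter drives CFP-1 fused to GFP, and the labels name no deletion of the endogenous gene. Chromatin was precipitated with anti-GFP serum (2 samples) or with an anti-H3K4me3 antibody (2 samples), and signal of the serum in embryos lacking GFP was not analysed here. Whole embryos mix all tissues, so a region can be bound in some cells and marked in others. The labels do not say whether RC03 and RC04 were separate cultures, and the spread between these samples may be technical.

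CFP-1 is the worm homologue of the mammalian CXXC finger protein, whose zinc finger binds unmethylated CpG dinucleotides, and it belongs to the COMPASS complex that places methyl groups on lysine 4 of histone H3. The trimethylated form, H3K4me3, typically sits at promoters of transcribed genes, and CFP-1 is known there as a partner of the methyltransferase. The X chromosome of the worm has a further layer of control: in hermaphrodites the dosage compensation complex loads at recruitment elements on X (rex sites) and lowers transcription along the chromosome. The positions of rex sites, promoters and genes in the build of the files (ce10) were not used here, so no region is assigned to any of them.

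The CFP-1 lists held 1501 peaks on X in RC03 and 1559 in RC04, and the H3K4me3 lists held 1976 and 2169. Read depth is unknown, as the files list peaks without reads. An unmarked region is therefore one where no H3K4me3 peak was called, not one shown to be without the mark. The score of a peak is the authors' own value from their peak caller, on a −log10 scale, and was compared within a list. To set regions side by side, each peak's score was also turned into its percentile rank among all peaks of its list, and the mean over both CFP-1 lists is called the mean rank.

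Unmarked regions made up 27.4% of the CFP-1 regions on X (95% exact binomial interval 24.9 to 30.0%), beside 22.8% on the autosomes (21.8 to 23.8%) and 23.5% over all chromosomes. These intervals, like all others given here, cover counting error only, and neighbouring regions are not independent. The autosomes differed among themselves by more than that. The share was 27.8% on IV and 26.7% on V, and 21.0% on I, 20.2% on II and 19.1% on III. X thus ranked between IV and V, and its share lay within the range of single autosomes. In single CFP-1 lists the share of peaks without H3K4me3 was 33.6% on X and 28.7% on the autosomes in RC03, and 34.5% and 28.6% in RC04, so X was higher in both. An exact paired permutation test over 2 lists cannot go below a two-sided p of 0.5, so none was used.

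**Figure D1:**
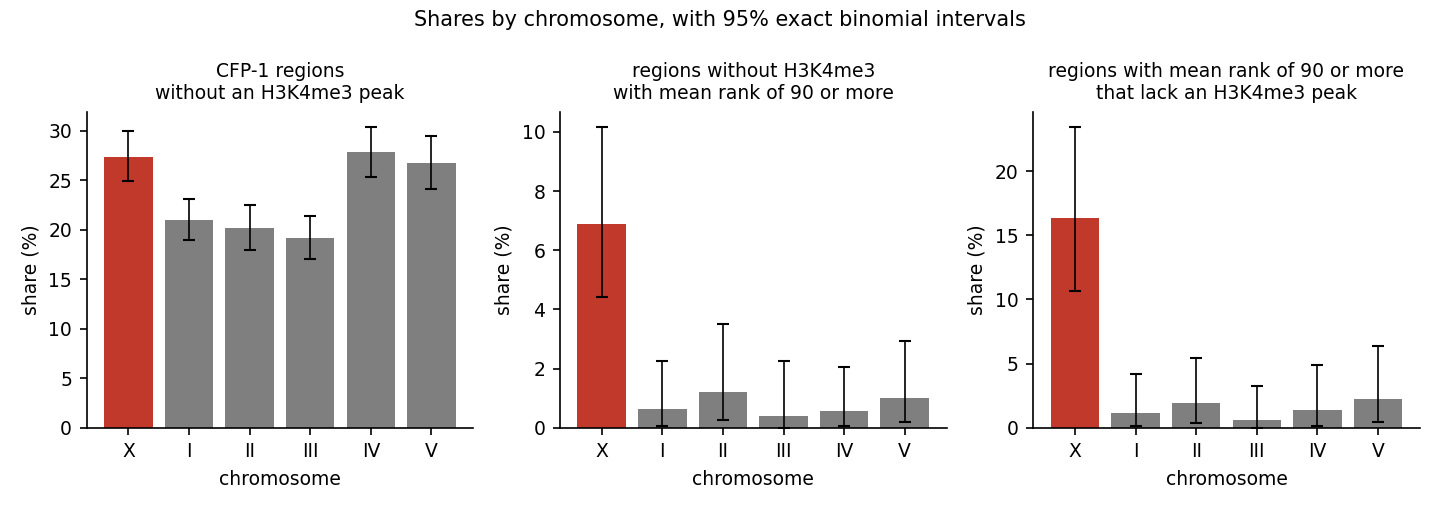
Shares by chromosome with 95% exact binomial intervals (vertical lines), for all CFP-1 regions (left), for unmarked regions with a mean rank of at least 90 (middle) and for regions of that rank that were unmarked (right). X, in red, stands among the autosomes on the left at 27.4%, and above each of them in the other panels, at 6.91% and 16.3%.

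Most of the unmarked X regions were weakly scored. The CFP-1 score had a median of 8.32 in RC03 and 8.64 in RC04, on average 8.48 ± 0.23 (SD, n = 2), against 21.6 and 20.9 at the 884 X regions with an H3K4me3 peak, on average 21.3 ± 0.45. The unmarked regions were lower than the marked ones in both lists, by far more than the spread between lists. At the 1450 unmarked autosomal regions the medians were 7.90 and 8.11, on average 8.005 ± 0.15 (SD, n = 2). The X values were slightly above these in both lists, but unmarked regions of chromosome V had 8.32 and 9.19, so X lay within the range of the autosomes here too. A score between 5 and 10 was the most frequent class, with 140 of the 333 regions in RC03 and 118 in RC04. Scores under 5, near the lower end of both lists, were found for 62 and 72 regions.

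A smaller number stood at the other end of the scale. Between scores of 40 and 80 there were 11 unmarked X regions in RC03 and 13 in RC04, and at 80 and above there were 25 and 24. In these classes, which are of unequal width and of which the last has no upper limit, the counts thus rose again at the top. On the autosomes they did not, as 38 and 44 unmarked regions scored between 40 and 80 and 11 and 17 scored 80 or more. As shares, 7.51% of the unmarked X regions in RC03 and 7.21% in RC04 scored at least 80, beside 0.759% and 1.17% of the unmarked autosomal regions.

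**Figure D2:**
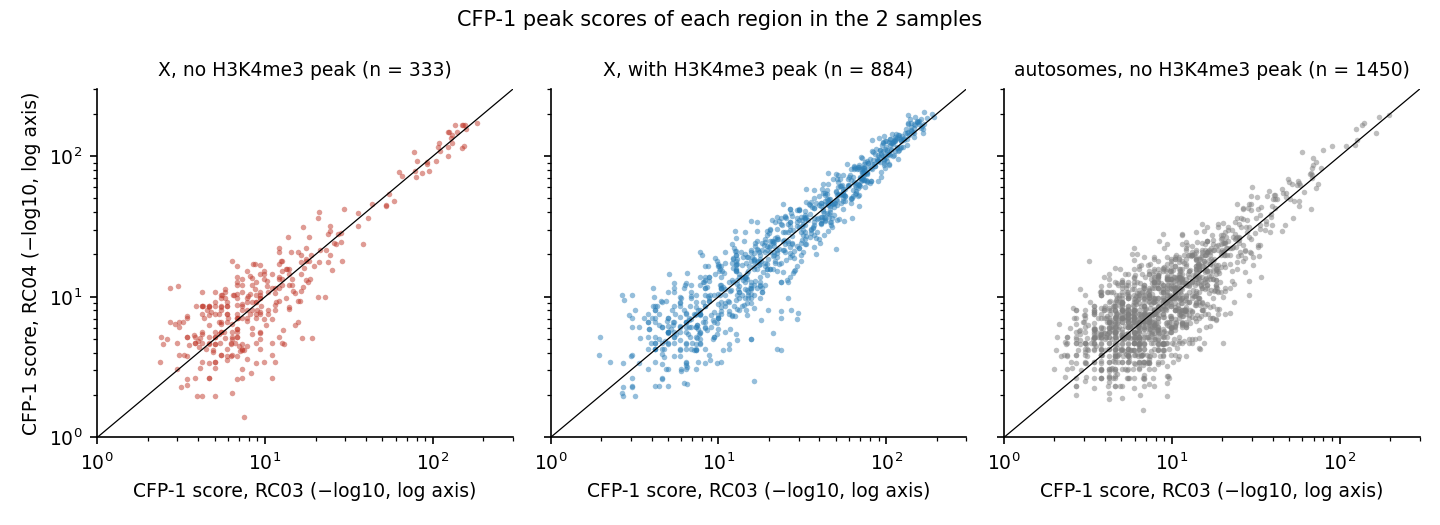
CFP-1 score in RC03 (horizontal, −log10 units on a log axis) against RC04 (vertical), 1 point per region, with the line of equal scores. The 333 unmarked X regions (left) lie mostly below 20, thin out between 40 and 80 and continue above 80 close to the line; the 884 marked X regions (middle) fill the whole range, and the 1450 unmarked autosomal regions (right) thin out above 40.

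The upper group was set apart at a mean rank of 90, a limit chosen after the values had been seen. It held 23 of the 333 unmarked X regions, or 6.91% (4.43 to 10.2%), where 12.1% of all CFP-1 regions reach this rank. Among the unmarked autosomal regions 11 of 1450 did, or 0.759% (0.379 to 1.35%). Single autosomes ran from 0.408% on III (1 of 245) to 1.22% on II (3 of 246). X thus stood above each autosome, though the autosomal shares rest on 1 to 3 regions each. Of the 34 unmarked regions of this rank in the genome, 23 lay on X, 67.6% (49.5 to 82.6%), whereas X held 18.7% of all unmarked regions. At a limit of 75 the shares were 11.1% on X and 3.93% on the autosomes, and at 95 they were 4.20% and 0.483%. A rank of at least 90 in each list on its own was reached by 6.01% and 0.690%. These are descriptions of regions, with no test, since regions are not replicates.

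Single lists give no separate support, as the mean rank was made from them, and they add weak peaks to the denominator. In RC03 alone, 24 of the 504 X peaks without H3K4me3 were at a rank of 90 or more (4.76%), against 12 of 2217 autosomal ones (0.541%). In RC04 alone it was 22 of 538 (4.09%) against 13 of 2199 (0.591%). Without RC04 or without RC03 there were thus 504 or 538 unmarked X intervals in place of 333, so the share at high rank was lower, while the number at high rank moved by 1 from the 23 of both lists.

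Set out by score, the unmarked share was lower on X than on the autosomes below a mean rank of 25, and higher on X in each class above that. The difference was largest at 90 and above, though this class edge was set with these data in view. The intervals of X and the autosomes overlapped in the classes below 90, which does not show that the shares were alike there. Regions are not replicates, so the intervals are no test. Below a mean rank of 25, 45.8% of the X regions (38.8 to 52.9%) and 47.2% of the autosomal ones (43.9 to 50.6%) were unmarked. Between 25 and 50 the shares were 42.6% (37.1 to 48.2%) on X and 38.0% (35.7 to 40.3%) on the autosomes, and between 50 and 75 they were 18.7% (14.7 to 23.2%) and 17.6% (15.9 to 19.5%). Between 75 and 90, 14 of 201 X regions were unmarked, 6.97% (3.86 to 11.4%), against 46 of 1150 autosomal ones, 4.0% (2.94 to 5.30%). At 90 and above, 23 of 141 X regions lacked the mark, 16.3% (10.6 to 23.5%), against 11 of 776, 1.42% (0.710 to 2.52%). On the autosomes the unmarked share fell in every class with rising score, whereas on X it fell as far as the class from 75 to 90 and was higher again in the last.

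The region with the highest mean rank, 99.1, lay at X positions 806464 to 806902 and scored 181.9 in RC03 and 171.3 in RC04. The next was at 14525454 to 14526170, with 154.5 in RC03 and 167.2 in RC04. After these, the region at 4208950 to 4209456 had 149.0 and 167.6. All of these exceeded the median of the 118 marked X regions of rank 90 or more, which was 113.4 in RC03 and 127.9 in RC04. The fourth, at 11093835 to 11094418, scored 151.0 in RC03 and 166.0 in RC04, and the fifth, at 5429099 to 5429866, scored 157.7 and 156.3. Next came the region at 13700504 to 13701062, with 134.9 in RC03 and 166.2 in RC04. It was lower in RC03 than in RC04, as were 10 of the 23 by rank, while 13 ranked higher in RC03, so neither list was the higher one throughout.

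The region at 1344855 to 1345299 scored 139.6 in RC03 and 149.2 in RC04. At 6296187 to 6296785 the scores were 125.0 and 148.9, and at 11937204 to 11937730 they were 129.7 and 141.4. The last of the 10 highest, at 16056248 to 16056820, had 122.5 in RC03 and 149.4 in RC04. Over all 23 the scores ran from 77.3 to 181.9 in RC03, with a median of 128.1, and from 88.3 to 171.3 in RC04, with a median of 124.6. The marked X regions above the same limit ran from 81.8 to 191.7 in RC03 and from 82.3 to 207.0 in RC04. Just inside the limit was the region at 1909400 to 1909759, with a mean rank of 90.2, and just outside it the one at 15736387 to 15736809, with 89.6, so no gap in rank stood at this limit.

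The ranks of a region in RC03 and RC04 were within 10 points of each other for 56.2% of all 333 unmarked X regions. The share was 73.5% at the marked X regions and 49.7% at the unmarked autosomal ones. At a mean rank of 90 or more, where ranks have little room to differ, it was 100% at unmarked and at marked X regions. Agreement was not compared within lower classes of rank. The Spearman rho between the scores of both lists, as a description across regions, was 0.74 over the 333, 0.94 over the 884 marked X regions and 0.68 over the 1450 unmarked autosomal ones. The largest disagreement was at 15327267 to 15327458, with a score of 2.71 in RC03 and 11.5 in RC04. The next were at 10640616 to 10640853, with 3.05 and 11.9, and at 6134391 to 6134771, with 11.0 and 2.67. In each of these regions 1 list ranked the peak among its lowest and the other near its median.

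Unmarked X regions were narrow. Their median width was 255 bp (quartiles 208 and 360 bp), against 394 bp (293 and 514 bp) at marked X regions and 257 bp (209 and 333 bp) at unmarked autosomal ones. In single lists the strongest peak of each region had a median width of 209 bp in RC03 and 224 bp in RC04 where the region was unmarked, and of 351 and 348 bp where it was marked. The difference between unmarked and marked was larger than the spread between lists, while that between X and autosomes was not.

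Higher-scored regions were also wider, so widths were compared within classes of mean rank. Below a mean rank of 25 the medians were 222 bp for unmarked X regions, 249.5 bp for marked X regions and 219 bp for unmarked autosomal ones, and from 25 to 50 they were 245, 294.5 and 251 bp. Between mean ranks of 50 and 75 the unmarked X regions had a median of 280 bp, against 389 bp for marked X regions and 297 bp for unmarked autosomal ones. From 75 to 90 the medians were 358.5, 481 and 334 bp. At 90 and above the unmarked X regions reached 527 bp (quartiles 419.5 and 591.5 bp), against 522.5 bp for the marked X regions, with 430 bp for the 11 unmarked autosomal ones. The difference in width between unmarked and marked X regions was thus seen in all 4 classes below 90 and not in the class above it. The widest unmarked X regions were not among the highest. They lay at 9007599 to 9008963 (1365 bp, scores of 8.08 in RC03 and 10.5 in RC04), at 14362112 to 14363155 (1044 bp, 15.1 and 10.7) and at 16100604 to 16101620 (1017 bp, 5.75 and 10.8). These are wide intervals of low score, and the first and the last of them joined several peaks of a list. In all, 12 of the 333 regions held more than 1 peak of a list.

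**Figure D3:**
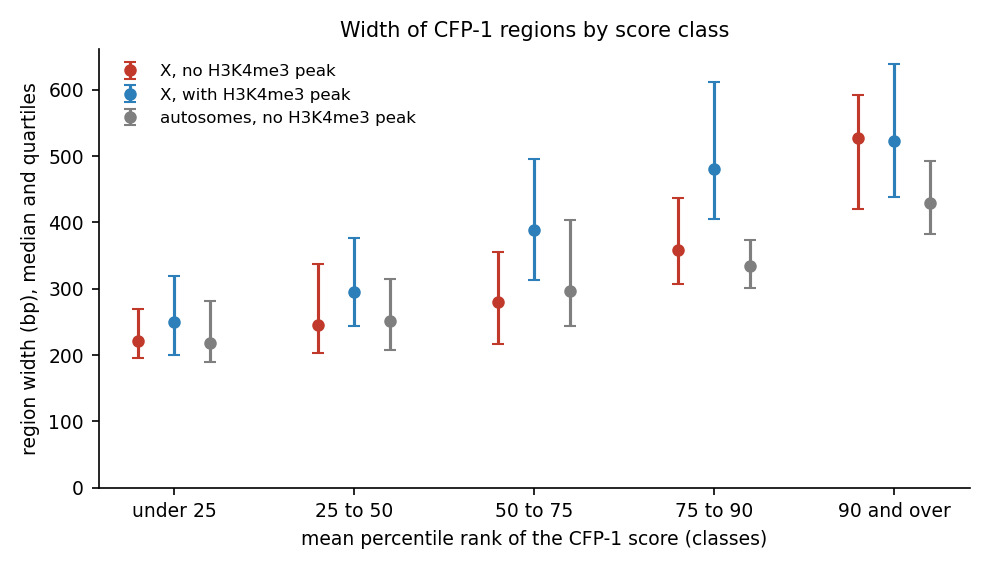
Median width of CFP-1 regions in bp (points) with quartiles (lines), by class of mean rank, for unmarked X regions, marked X regions and unmarked autosomal regions. Unmarked X regions follow the unmarked autosomal ones up to a rank of 75 to 90 (358.5 and 334 bp, marked X regions 481 bp) and stand beside the marked X regions at 90 and over (527 and 522.5 bp).

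By the rule no H3K4me3 peak overlapped these regions, and distances from other positions on X were not measured. The nearest H3K4me3 peak lay a median of 4348 bp from an unmarked X region (quartiles 1334 and 9306 bp), against 3415.5 bp (745 and 9231.5 bp) for unmarked autosomal regions. Within 1000 bp there was a peak for 75 of 333, 22.5% (18.1 to 27.4%), against 28.9% on the autosomes (26.6 to 31.3%). Within 5000 bp the shares were 56.5% and 59.0%, and within 10000 bp both were 76.9%. The median distance on X was above that of every autosome, though close to the 4260.5 bp of IV and the 4036 bp of V, while the lowest was 2414 bp on II. Of the 75 regions with a peak within 1000 bp, 50 had one of each H3K4me3 list there, and 9 of the 333 had peaks within 1000 bp on both sides.

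The high-ranking X regions lay farther out than the rest. Their median distance was 8602 bp (quartiles 3626.5 and 15094.5 bp), against 4182.5 bp for the other 310 unmarked X regions and 1468 bp for the 11 unmarked autosomal regions of that rank. A single one of the 23 had an H3K4me3 peak within 1000 bp, at 17181194 to 17181548, where a peak of RC04 with a score of 12.9 began or ended 200 bp away. The nearest H3K4me3 peak to the region at 11093835, by contrast, was 20185 bp away and scored 66.0. Across the 333 regions, which share their lists, the mean rank and the distance had a Spearman rho of 0.20, beside 0.07 across the unmarked autosomal regions. Distances to H3K4me3 regions called in both lists gave the same order, with medians of 9495 bp for the 23 and 4998 bp for the other 310.

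**Figure D4:**
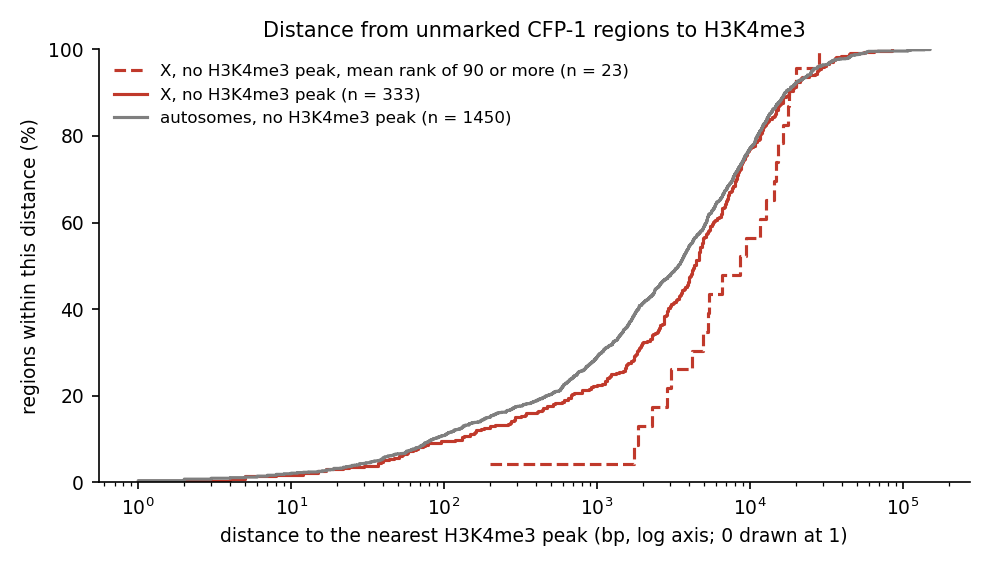
Cumulative share of unmarked CFP-1 regions (vertical, %) by distance to the nearest H3K4me3 peak (horizontal, bp on a log axis, 0 drawn at 1). The 23 high-ranking X regions (dashed) lie to the right of all unmarked X regions and of the unmarked autosomal ones, with medians of 8602, 4348 and 3415.5 bp.

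The regions closest to the limit of the rule, 3 on either side of it, had mean ranks from 13.7 to 45.3. Just inside, the region at 4145072 to 4145293 touched an H3K4me3 peak of RC04 without sharing a base. The region at 12449253 to 12449431 lay 4 bp from a peak of RC04, and that at 16595601 to 16595848 lay 4 bp from a peak of RC03. Just outside, the regions at 10083311 to 10083485, 2779902 to 2780166 and 11554567 to 11554794 overlapped an H3K4me3 peak of RC04 by 3, 4 and 5 bp. The CFP-1 scores of all these regions were between 4.26 and 14.5. At the far end, the regions most distant from the mark were neighbours in one stretch of the right arm. The one at 15953626 to 15953839 was 85047 bp from the nearest H3K4me3 peak, the one at 15973305 to 15973493 was 65393 bp away, and the one at 15922817 to 15923017 was 56124 bp away. Their CFP-1 scores were between 4.26 and 13.3. Of the 884 marked X regions, 821 overlapped a peak of both H3K4me3 lists, 29 of RC03 alone and 34 of RC04 alone.

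Along X, unmarked regions were more frequent towards the ends, while the number of marked ones varied less. In 6 equal parts of 2.95 Mb, from left to right, there were 77, 45, 42, 36, 62 and 71 unmarked regions, against 152, 156, 150, 150, 144 and 132 marked ones. The unmarked share was 33.6% (27.5 to 40.1%) in the first part, 19.4% (13.9 to 25.8%) in the fourth and 35.0% (28.4 to 42.0%) in the last. Outside the middle 2 of the 6 parts, here called the centre, it was 30.4% (27.3 to 33.6%), against 20.6% (16.7 to 25.1%) in the centre, 9.76 percentage points more. Single CFP-1 lists gave 36.5% outside and 27.0% in the centre in RC03, and 37.1% and 29.0% in RC04. Every autosome had a higher unmarked share outside its centre too, by 5.87 points on III to 11.9 points on IV, so X lay within their range. On X the density of unmarked regions was 21.6 per Mb outside the centre and 13.2 per Mb within it, while that of marked regions was 49.4 and 50.8 per Mb. Marked regions were not even on a finer scale. In 10 equal parts of X they were fewest at the ends, with 77 in the first part and 69 in the last. The highest number was 106, in the second part, while unmarked regions ran from 20 to 45. On each autosome, marked regions were denser in the centre, with 47.9 per Mb outside and 58.8 per Mb within on IV.

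**Figure D5:**
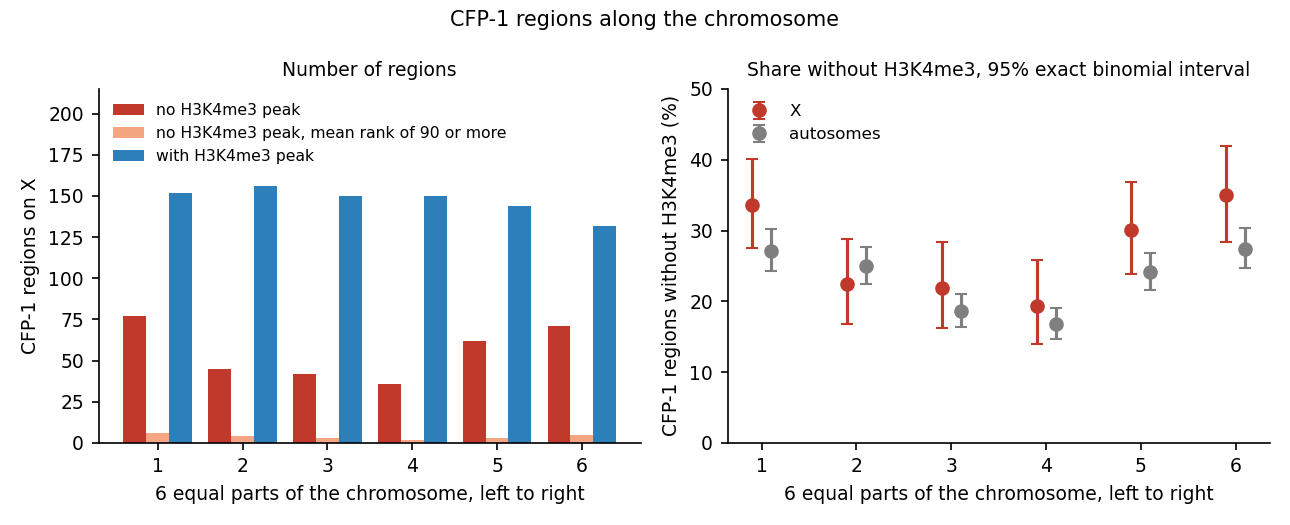
CFP-1 regions in 6 equal parts of the chromosome. On the left are numbers on X: unmarked regions run from 77 through 36 to 71, those of rank 90 or more from 6 through 2 to 5, and marked ones stay between 132 and 156. On the right is the unmarked share (%) with 95% exact binomial intervals on X and on the autosomes, both lowest in the fourth part.

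The 23 high-ranking regions were present in every part of X, with 6, 4, 3, 2, 3 and 5 from left to right. They were mostly single. The gap between neighbours had a median of 833588 bp and a maximum of 1762773 bp, and 2 of the 23 had another within 20000 bp. These were the pair at 17544290 to 17544665 and 17545391 to 17545804, 725 bp apart, with scores of 152.7 and 103.7 in RC03 and 118.6 and 92.2 in RC04. The nearest other of the 23 lay at a median of 498911 bp, and the nearest other CFP-1 region of any kind at 4015 bp. These distances depend on set size, as the 23 are few among the 1217 CFP-1 regions on X. Among all 333 unmarked X regions 103 had another unmarked one within 5000 bp, 30.9%, against 59.95% of the marked X regions for another marked one. That the marked set is the larger one also shortens its spacing. The outermost unmarked regions began at 11354 on the left and ended at 17688512 on the right.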

How the data were processed

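Peak lists from 4 samples were used, 1 per sample and not pooled. Per the submitters' processing notes, the authors used BWA, build ce10 and MACS2 (2.0.10); control, duplicate treatment and threshold were not given in the sources used here. Each deposited score is a −log10 value, of a p or a q not stated; the lowest was 1.30. Deposited peak names carry a larval stage abbreviation, whereas the labels give late embryos and were followed. The deposited files hold no read counts, so depth and its precision are unknown.

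Merging joined RC03 and RC04 CFP-1 peaks that shared at least 1 bp. Positions are 1-based. The last peak end served as chromosome length. Members and lists were chosen with earlier results of these data known. Regions named were the 10 highest by mean rank, the 3 widest, nearest to, farthest from and just past the mark, and those differing most between lists; others are named as extremes chosen after their values were seen. No tests over regions were made. bedtools 2.31.1 gave the same 333 regions, and merging and distances were checked on simulated intervals. Gene and sequence parts planned for a ce10 reference were not run: the available gene names follow assembly WBcel235. Software was scipy 1.17.1, pandas 2.3.3, numpy 2.4.6, matplotlib 3.10.9 and Python 3.11.15.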

Additional observations from a re-analysis of the deposited data

How the results depend on the processing

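Of 124 values under alternative settings, 47 moved little and 77 moved by more. Little means less than the spread between lists, the binomial interval or, for the number of regions, 1.5 times. Some moves follow from the setting itself, such as another limit of rank or spacing, or distances to a subset of peaks. The excess of the unmarked share outside the centre of X kept its sign in every alternative. X had a higher unmarked share than the pooled autosomes in all 13 settings, the reported one included. In these settings unmarked X regions also had a lower median score and a smaller median width than marked X regions. Their share at high rank exceeded that of the unmarked autosomal regions in all 16 settings, again with the reported one included. Single autosomes were not compared under the alternatives, and as reported IV, at 27.8%, stood above X. The values for high rank, the limits of 75 and 95 and the central 50% of X were added after the data had been seen. For comparison, the reported values were 333 regions, unmarked shares of 27.4% on X and 22.8% on the autosomes, median scores of 8.48 at unmarked and 21.3 at marked X regions, widths of 255 and 394 bp, and high-rank shares of 6.91% and 0.759%. In the same order, values that moved were as follows. With H3K4me3 within 500 bp also removing a region they were 22.5% and 18.2%, scores of 8.78 and 19.1, and 386 bp at marked regions. Within 1000 bp they were 21.2% and 16.2%, 9.09 and 18.6, and 385 bp. With H3K4me3 regions of both lists they were 31.4% and 27.8%, 22.9 and 400 bp at marked regions. With the higher-scored 50% of H3K4me3 peaks they were 35.3% and 32.0%, 24.7 at marked regions, and 268 and 404 bp. With the higher-scored 50% of every list they were 117 regions, 18.5% and 13.3%, 26.5 and 46.0, 371 and 452.5 bp, and 21.4% and 4.39%, since weak peaks are left out by construction. With all merged CFP-1 peaks they were 665 regions, 37.7% and 31.7%, 6.28 and 17.3, 203 and 343 bp, and 3.46% at high rank on X. High-rank shares at a limit of 75 were 11.1% and 3.93%, and at 95 the X share was 4.20%.

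With 1 list left out, the number of unmarked X regions ran from 362 to 538, the unmarked share from 29.7 to 34.5% on X and from 25.8 to 28.7% on the autosomes, and the median score from 5.90 to 8.602 at unmarked and from 16.5 to 22.3 at marked X regions. Widths ran from 196 to 262.5 bp and from 326 to 400 bp, high-rank shares from 4.09 to 6.35% and from 0.541 to 0.840%, the distance to H3K4me3 from 4661 to 4769 bp, and the outer excess from 8.05 to 9.48 points. The distance was 5241 bp to regions of both lists and 7078 bp to the higher-scored H3K4me3 peaks. The outer excess was 10.8 points with the central 50% of X. Another unmarked region lay within 1000 bp for 12.3% and within 20000 bp for 58.9%. The labels do not say that a number marks a shared extract. Treated as a replicate block, same-numbered lists gave 570.5 regions on average, 37.3% and 32.4%, 6.18 and 17.9, 198 and 333.5 bp, and 4.04% at high rank on X. Lists of different numbers gave 563 regions, 36.8% and 4.10%. Across 821 X regions the rank differences between RC03 and RC04 correlated between the antibodies at a Spearman rho of -0.10. With a CFP-1 list left out, and in the pairings of lists by number, the rule of a peak in both CFP-1 lists fell away. Peaks called in 1 list alone were thus counted there, and widths are those of single-list peaks and not of merged intervals. Depth is unknown, and the cause of these shifts was not tested unless stated.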

Other observations

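CFP-1 peaks on X called in 1 list alone belong to no region. In RC03 151 of 260 such peaks, 58.1%, overlapped no H3K4me3 peak, and in RC04 181 of 287, 63.1%, did not. The share was 27.4% at X regions called in both lists, and 45.8% at those of them below a mean rank of 25. Single peaks on the autosomes were not counted. The median score of the unmarked single peaks on X was 4.62 in RC03 and 4.26 in RC04, and the highest was 17.6 and 14.2. Each unmarked X peak of rank 90 or more was thus matched by a peak of the other list.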
